A study of Homo sapiens with 3 samples.

Results

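To examine how far 2 knockdowns of the same gene resemble each other, the array of PRMT1-KD1 was set directly against the array of PRMT1-KD2 (KD1 and KD2 below), and the control array (PRMT1-NC, below NC) entered no difference. All cells were HCT116, an established human colorectal carcinoma line, grown in McCoy's 5A medium and transfected with a lipid reagent. Per the labels, PRMT1 was targeted with 2 siRNAs, while the paper also speaks of short hairpin RNAs. The labels do not say which siRNA belongs to KD1 and which to KD2, so they were not assigned here. Each group was 1 RNA sample on 1 Agilent 1-colour array, so the differences rest on single arrays, without replicates and without p-values. A gene was a member of the comparison when KD1, KD2 or both showed its brightest probe well above background, which held for 19560 of 41752 gene names with a usable probe. Values are log2 signals minus the 75th percentile of the array, a difference is KD1 minus KD2, and a gene was counted when the arrays were at least 1.5-fold apart.

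PRMT1 is the main enzyme that places asymmetric dimethyl marks on arginine residues, among them the mark on arginine 3 of histone H4 (H4R3me2a), which is associated with active transcription. It also methylates many RNA-binding proteins with glycine- and arginine-rich stretches, such as hnRNPs and the snoRNA-associated protein fibrillarin. An siRNA lowers a messenger RNA that is fully complementary to it, and it can also lower other transcripts that match only its seed, the bases near the 5′ end of the strand that is loaded. A comparison of 2 knockdowns therefore holds the different depths of knockdown, the seeds, and any difference between the cultures and RNA preparations, which cannot be told apart with 1 array each.

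The 2 siRNA sequences of the labels are shown because they are the designed difference between the knockdowns. Capitals mark bases 2 to 8 of the strand as printed. They mark UGAAGUC in the first and UGUAGUC in the second.
PRMT1 siRNA-1: cUGAAGUCcaggucgauggugaaguc
PRMT1 siRNA-2: uUGUAGUCuuuguacugcc

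The array read the targeted gene with 1 probe (A_23_P39088, transcript NM_001536; hg19 chromosome 19, 50188248 to 50189362). The 60 bases of the probe lie over 1115 bases of the genome, so the probe crosses a splice junction and is exonic. Neither siRNA's complement lies within the probe. DRICH1, the protein-coding gene with the largest excess on KD1 among those well above background on both arrays, was read by a probe on chromosome 22 (23974099 to 23974158). The following EGFR probe (chromosome 7, 55231446 to 55231505) was 1 of 3 for that gene.
PRMT1 probe: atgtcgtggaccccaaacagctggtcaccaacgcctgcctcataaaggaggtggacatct
DRICH1 probe: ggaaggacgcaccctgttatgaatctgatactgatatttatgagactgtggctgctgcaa
EGFR probe A_33_P3351955: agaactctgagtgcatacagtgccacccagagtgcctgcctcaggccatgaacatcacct

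PRMT1 itself was not lowered to the same level. Its normalized signal was 2.75 on KD1 and 1.48 on KD2, against 6.03 on NC. KD1 thus retained 2.41-fold more PRMT1 signal than KD2, a difference of 1.27 log2 units. PRMT1 was lower than NC on both arrays, as the labels of a knockdown require. Over the 16 settings of the closing section the difference lay between 1.17 and 1.63. As in any bulk sample, fewer cells with a transcript and less of it per cell cannot be told apart.

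The share of probes well above background was 41.6% on KD1 and 42.3% on KD2, and no spot was saturated. Slide and scan were the same for both. KD1 had 141 spots marked as non-uniform, against 5 on KD2 and 6 on NC, and these were left out. Over 274 probes spotted at least 5 times, the median SD between spots was 0.049 log2 units on KD1 and 0.038 on KD2, which covers spot-to-spot error only. Of 12 markers of colorectal epithelium, 8 were measured and none was past 1.5-fold, with differences between -0.50 (KRT8) and 0.28 (EPCAM). Of 8 fibroblast markers 2 were measured, of 7 leukocyte markers 3, and of 5 endothelial markers 2. These 7 genes lay between -1.32 (ITGAM) and 1.16 (PDGFRB), and CD3E, PECAM1 and COL3A1 were not well above background on either array.

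The knockdowns differed in 3647 genes, or 18.6% of those measured. Of these, 1759 genes were higher on KD1 (8.99% of all genes measured) and 1888 genes were higher on KD2 (9.65%). At 2-fold, 452 and 508 genes remained, and at 4-fold 47 and 68. For 324 of the genes higher on KD1 and 624 of those higher on KD2, the other array was not well above background. Such folds, and those given below as at least a value, are bounds in this setting only. Among protein-coding genes the balance was the other way, with 1293 of 12963 higher on KD1 (9.97%) and 706 higher on KD2 (5.45%). Across the 17613 genes well above background on both arrays, which are not independent replicates, the levels correlated with a Pearson r of 0.989, and the robust SD of the difference was 0.38.

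The balance of the 2 directions depended on how the arrays were scaled to each other. Of the genes past 1.5-fold, 48.2% were higher on KD1 in the setting used here. The share was 68.9% with normexp correction, 84.5% with median scaling, 87.7% with the unscaled matrix values and 90.01% with scaling to spike-ins. It was 31.6% when the percentile was taken over detected probes alone, and 30.9% when scaled to detected protein-coding probes. The median difference of all genes was -0.01, and it moved to 0.26 with median scaling, 0.31 with the matrix values and 0.35 with spike-in scaling. Gene groups are therefore described relative to the median of all genes, which a scaling by 1 factor per array leaves as it is.

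**Figure D1:**
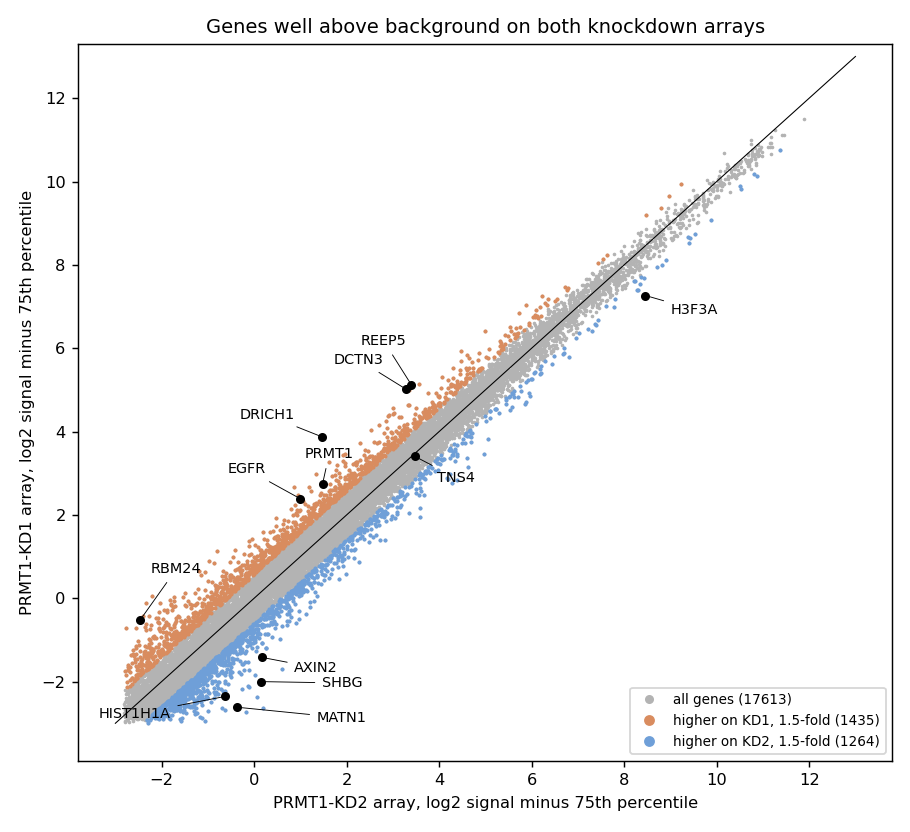
Normalized log2 signal of each gene on KD1 (vertical axis) against KD2 (horizontal axis) for the 17613 genes well above background on both arrays, with equal signal on the black line. Coloured genes were at least 1.5-fold apart (1435 higher on KD1, 1264 higher on KD2), and PRMT1, DRICH1, EGFR and RBM24 lie above the line while TNS4 lies close to it.

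Among protein-coding genes well above background on both arrays, the 12 with the largest excess on KD1 lay between 1.72 and 2.40 log2 units. DRICH1, an aspartate-rich protein of little known function, had a signal of 3.87 on KD1 and 1.47 on KD2, a 5.27-fold difference, with 3.89 on NC. KD1 was thus close to NC for this gene, and KD2 was low. E2F5, an E2F factor that acts mainly as a repressor, showed the same order, with -0.11 on KD1, -2.04 on KD2 and -0.07 on NC. RBM24, an RNA-binding protein known from muscle splicing, was at -0.52 on KD1, -2.46 on KD2 and -1.59 on NC (probe on chromosome 6, 17293731 to 17293790). NC therefore lay between the knockdowns, and the RBM24 difference of 1.94 was 0.80 with normexp correction, the lowest of its alternatives.

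Some of these genes belong to protein turnover and RNA quality control. TRIM2 and TRIM23, both ubiquitin ligases, were 3.94-fold and 3.56-fold higher on KD1, and KLHL2, a substrate adaptor of cullin ligases, 3.60-fold. FBXW2, an F-box protein of another cullin ligase, was at -0.05 on KD1, -1.82 on KD2 and -0.30 on NC. SMG8, a regulator of the kinase that starts nonsense-mediated decay, was at 2.67 on KD1, 0.86 on KD2 and 1.73 on NC. REEP5, which shapes the endoplasmic reticulum, was at 5.12, 3.40 and 4.38. DCTN3, a subunit of dynactin, was at 5.02, 3.28 and 4.72. The signals of REEP5 and DCTN3 were far above the floor of the arrays on all 3 arrays. GRM8, a glutamate receptor, and SCRN3 were 3.81-fold and 3.29-fold higher on KD1. For GRM8 the mean over its probes brought the difference to 0.53, below 1.5-fold. NC lay between the knockdowns for 9 of the 12 genes.

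The 12 genes with the largest excess on KD2 lay between -1.52 and -2.25. MATN1, a cartilage matrix protein, had a signal of -2.62 on KD1, -0.36 on KD2 and -2.33 on NC. SHBG, the carrier of sex steroids in blood, was at -2.0, 0.14 and not well above background on NC. ERO1LB, an oxidase of the endoplasmic reticulum, was at -2.67, -0.64 and -2.61. For these genes KD2 stood above both other arrays, and the same held for CPO (3.80-fold), ST8SIA5 (3.59-fold) and CDH16 (2.91-fold). The pixels of the KD2 spots of MATN1, SHBG, ERO1LB, CPO and CSF3R had a pixel scatter above the 95th percentile for their signal, and the part of this in their values was not tested. Among the 12 genes higher on KD1, TRIM23 on KD1 and REEP5 on KD2 were past the same limit. The other probes of SHBG, ERO1LB, RSPO3, FBXW2, SCRN3 and GRM8 were not well above background on either knockdown array. Those of MATN1 and KCTD12 were well above it on KD2 alone, with differences of -0.64 and -0.44.

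The genes higher on KD2 included members of the Wnt and activin pathways. AXIN2, a feedback inhibitor that beta-catenin activates, was at -1.42 on KD1, 0.17 on KD2 and 0.05 on NC (chromosome 17, 63554388 to 63554447). Its second probe was 0.04 apart, so the 2 AXIN2 probes did not give the same answer. RSPO3, a secreted enhancer of Wnt signals, was at -2.26 on KD1 and -0.66 on KD2. INHBB, a subunit of activin B, was at -0.99 on KD1, 0.55 on KD2 and -0.61 on NC. KCTD12, a partner of GABA receptors, was the only 1 of the 12 with NC (-0.46) above both KD1 (-2.39) and KD2 (-0.86). NC was nearer to KD1 for 9 of these 12 genes, and nearer to KD1 for 5 of the 12 genes higher on KD1.

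**Figure D2:**
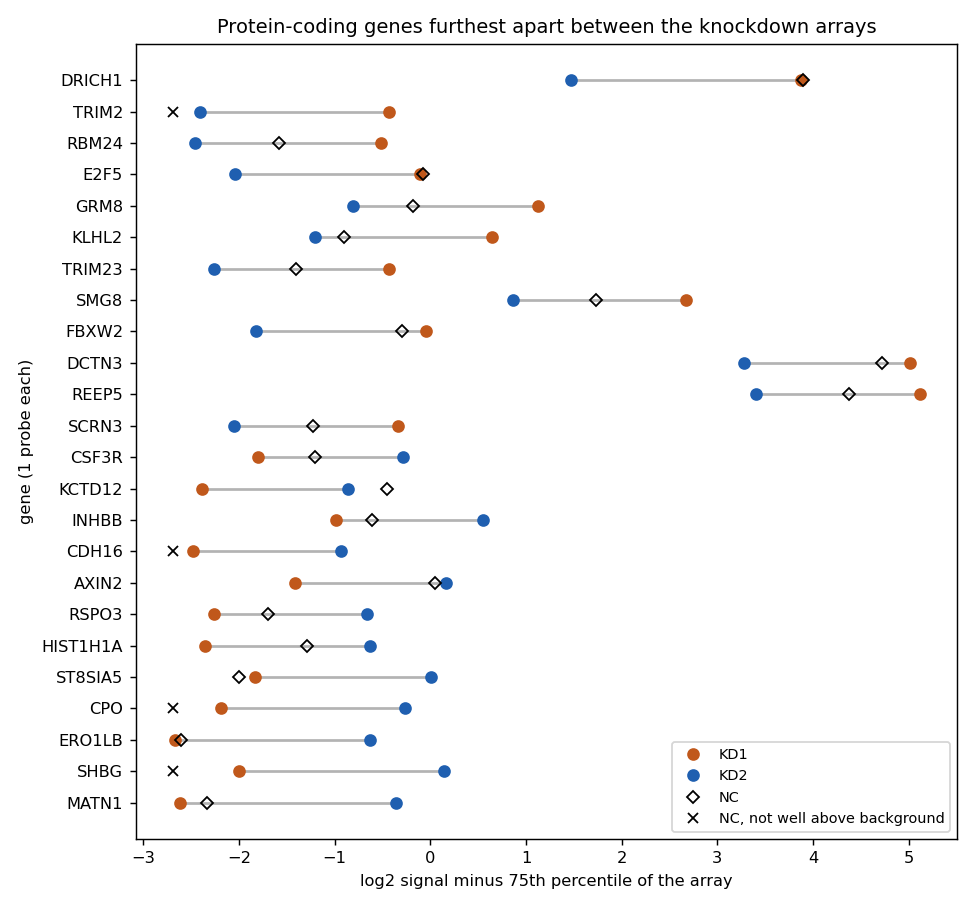
Normalized log2 signal of the 24 protein-coding genes furthest apart between the knockdowns, with KD1 in orange, KD2 in blue and NC as a diamond, or as a cross where NC was not well above background. DRICH1 and E2F5 had KD1 and NC together, and MATN1 and ERO1LB had KD1 and NC together at the low end.

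Another probe of the same gene gave a further reading of the same RNA. It was available above background on both arrays for 4003 genes, of which 62.5% had it on the same side as the brightest probe. Of the genes higher on KD1 that had one, 217 of 303 (71.6%) had it on the same side and 91 past 1.5-fold. Of those higher on KD2, 114 of 150 (76.0%) had it on the same side and 34 past 1.5-fold. In 10 and 2 genes the other probes were past 1.5-fold on the opposite side. A call at 1.5-fold from 1 probe was thus met by another probe at that size in a minority of genes. Near the threshold, H2AFY2 (0.5851) and RCOR3 (0.585) lay just inside and just outside on the KD1 side, and ZSWIM4 (-0.5855) and HES1 (-0.5847) on the KD2 side.

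To see which pathways separated the knockdowns, 60 gene lists were described by the median of their measured members relative to all genes. A list was called leaning when this was at least 0.2 log2 units and at least 2 of every 3 of its members past 1.5-fold lay on that side. By this rule 3 lists leaned to KD1 and 3 to KD2, of which the LINC genes kept their lean under only 4 of 16 alternatives. The medians of the other 54 lists lay between -0.19 and 0.19. In all, 43 of the 60 lists lay above the median of all genes. Protein-coding genes as a whole lay at 0.06, so that a list of such genes is to be read against that value too. The methionine cycle, serine and folate list and the p53 targets (unadjusted medians 0.24 and 0.21) lay less than 0.2 above that value.

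**Figure D3:**
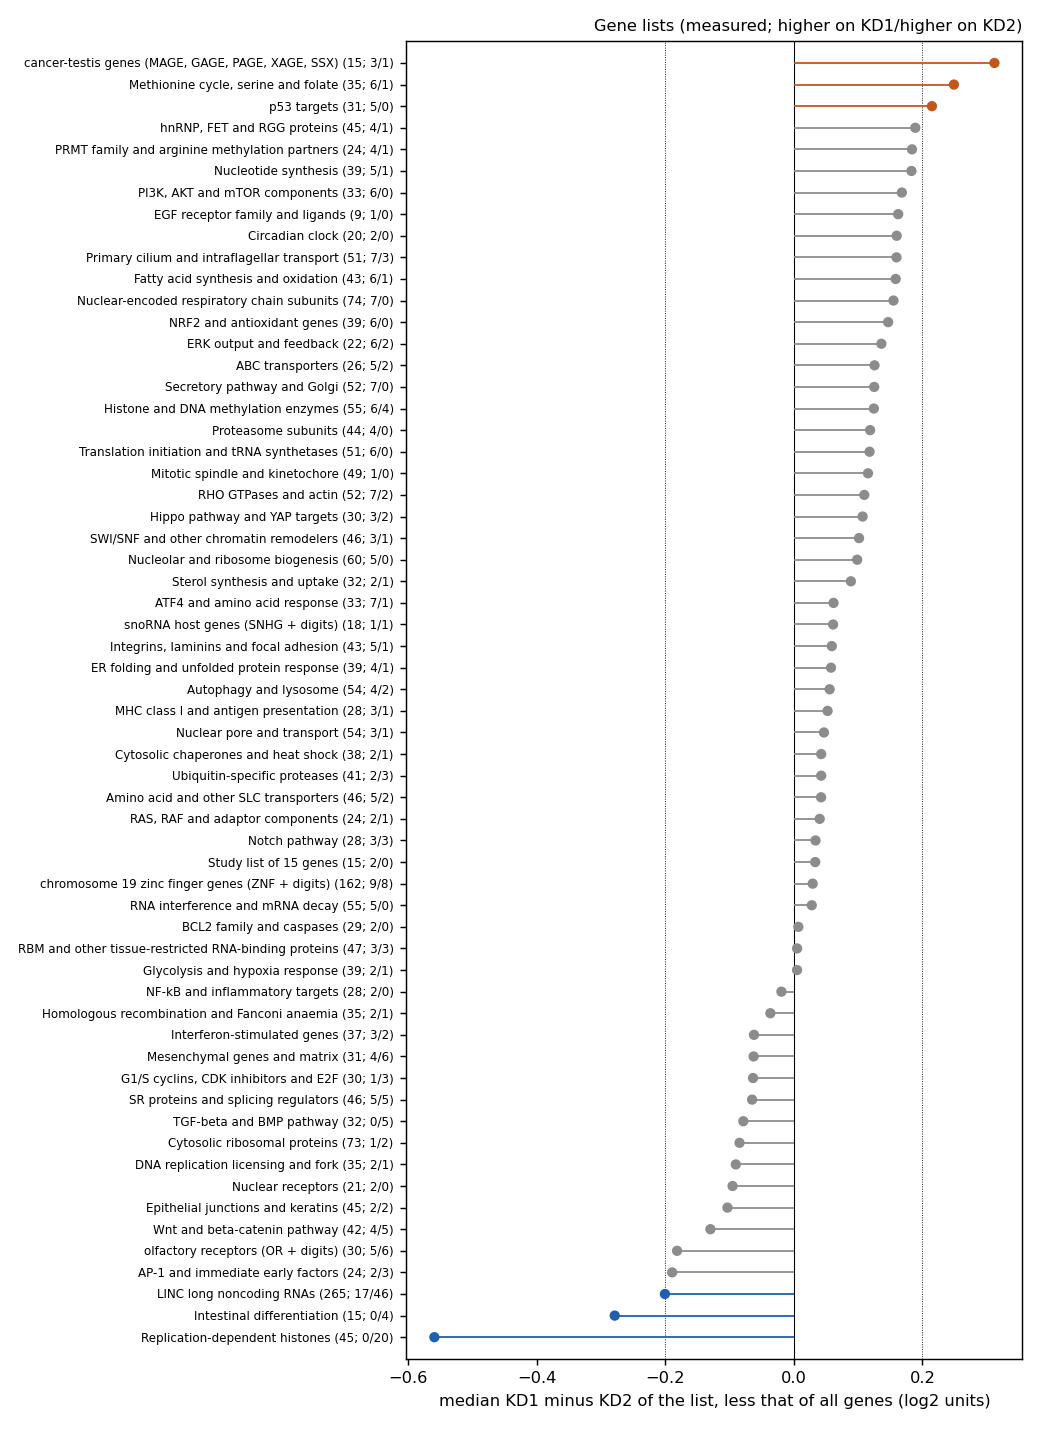
Median KD1 minus KD2 difference of each of 60 gene lists, less the median of all genes (horizontal axis, log2 units), with the number of measured members and the numbers past 1.5-fold higher on KD1 and on KD2 after each name. The dotted lines mark 0.2 each way, orange lists leaned to KD1 and blue lists to KD2, and the histone list stands furthest from 0.

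The methionine cycle, serine and folate list leaned to KD1. This pathway makes S-adenosylmethionine, the methyl donor of PRMT1 and all other methyltransferases. Of its 35 measured genes, 6 were higher on KD1 (17.1%, against 9.97% of all protein-coding genes) and 1 on KD2. The median relative to all genes was 0.25. PHGDH and PSAT1, the first steps of serine synthesis, were at 3.72 and 3.78 on KD1 and at 2.98 and 2.90 on KD2, with 4.09 and 3.55 on NC. The serine synthesis genes thus lay lower on KD2 than on both other arrays, while PSPH, the last step, differed by 0.04. MTAP, which salvages methionine, was at 3.59 on KD1, 2.82 on KD2 and 3.90 on NC, and the mean of its other 2 probes differed by -0.03. MTHFD1L, a mitochondrial folate enzyme, and SMS, which makes spermine, were 1.57-fold and 1.54-fold higher on KD1. MTHFD2L was at least 1.67-fold higher, since it was not well above background on KD2, and ALDH1L2 at least 1.53-fold lower. MAT2A and AHCY, the enzymes that make S-adenosylmethionine and clear its product, differed by -0.02 and 0.38. After correction for probe GC content and signal the list was at 0.19, below the limit.

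The p53 targets leaned to KD1, with a relative median of 0.21. Of 31 genes, 5 were higher there (16.1%, against 9.97% of all protein-coding genes) and none on KD2. TP53INP1, an autophagy and stress gene, was at 0.67 on KD1, -0.40 on KD2 and -0.36 on NC, and its second probe differed by -0.09. SESN1, a stress-induced inhibitor of mTORC1 signalling, was at 0.48, -0.33 and -0.55. FAS, the death receptor, was at 2.84, 2.19 and 1.69, and its 2 other probes differed by 1.02 on average. TP53I3 was 1.61-fold higher on KD1, with 0.72 at its second probe, and CYFIP2 1.65-fold. The best known targets were closer, with differences of 0.11 for CDKN1A, 0.35 for MDM2, -0.24 for BAX and -0.35 for BBC3. The GC and brightness correction brought the p53 list to 0.13, and it fell below 0.2 under 6 alternatives.

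The list named cancer-testis genes was collected by gene name alone (MAGE, GAGE, PAGE, XAGE and SSX). A name does not establish that a member, such as MAGEF1, is restricted to the germ line. The list had a relative median of 0.31 over 15 members. Of these, 3 were higher on KD1 (20%, against 9.97% of all protein-coding genes) and 1 on KD2. MAGEF1 was at 0.76 on KD1, -0.31 on KD2 and -1.001 on NC. MAGEA12 was at 3.96, 3.31 and 2.68. GAGE2B was 1.57-fold higher on KD1 and SSX2 1.55-fold lower. Such genes have near-identical copies whose signals a probe may not separate. Without the filter and the floor the list lay at -0.02.

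Several lists of growth and biosynthesis did not lean, but all their members past 1.5-fold lay on the KD1 side. Nuclear-encoded subunits of the respiratory chain had 7 of 74 genes higher on KD1 and none on KD2, with a relative median of 0.15 and 59 genes above 0. Among them NDUFA13, of complex I, was at 6.83 on KD1, 5.72 on KD2 and 7.40 on NC. Secretory pathway genes had 7 of 52 against none and a relative median of 0.13, with RAB1A, a GTPase of transport out of the endoplasmic reticulum, at 5.70, 4.47 and 4.64. Translation initiation factors and tRNA synthetases had 6 of 51 against none and a relative median of 0.12. EIF4E, the cap-binding protein, was at 4.63 on KD1, 3.34 on KD2 and 3.52 on NC, and its 2 other probes differed by 1.16 on average. Proteasome subunits had 4 of 44 against none and a relative median of 0.12, with PSMC6 at 3.29, 1.92 and 2.38. The shares higher on KD1 were 9.46%, 13.5%, 11.8% and 9.09% in this order, beside 9.97% of all protein-coding genes, so those of the respiratory chain and the proteasome were not above it.

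The PI3K, AKT and mTOR list had 6 of 33 genes higher on KD1 (18.2%, against 9.97% of all protein-coding genes) and none on KD2. Its relative median was 0.17. DEPTOR, an inhibitor of mTOR, was at 0.04 on KD1. On KD2 it was not well above background (-2.59), so its 6.16-fold excess on KD1 rests on an undetected value. With normexp correction the DEPTOR difference was 0.97 log2 units. IRS1, the adaptor of the insulin receptor, was 1.81-fold higher with 0.76 at its second probe, and EIF4EBP2, a repressor of EIF4E, 1.84-fold with 0.69 at its second probe. The genes higher on KD1 thus included inhibitors (DEPTOR, TSC1, SESN1, EIF4EBP2) as well as activators (IRS1, AKT2) of the pathway. Nucleotide synthesis genes had 5 of 39 higher on KD1 (12.8%, against 9.97% of all protein-coding genes) and 1 on KD2. They were led by PAICS, a purine enzyme, at 5.94 on KD1, 4.47 on KD2 and 5.58 on NC. CMPK1 was 0.80 lower on KD1 at its brightest probe and 1.02 higher at its other probe.

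The PRMT family list had 4 of 24 genes higher on KD1 (16.7%, against 9.97% of all protein-coding genes) and 1 on KD2. Its relative median was 0.18. PRMT6, another enzyme of asymmetric dimethylation, was at 1.27 on KD1, 0.02 on KD2 and -0.44 on NC. PRMT3 was at 0.83, -0.16 and -0.22. Both were therefore highest on KD1 and lowest on NC, and a relation to the PRMT1 level was not tested. PRMT5, the main enzyme of symmetric dimethylation, differed by 0.59, just past 1.5-fold, and PRMT1 itself made up the count of 4. CARM1 and PRMT7 differed by -0.24 and 0.12. TOB1, a member of the BTG/TOB family, was 0.82 lower on KD1. Of 45 hnRNP, FET and RGG proteins, 4 were higher on KD1 (8.89%, against 9.97% of all protein-coding genes) and 1 on KD2, with a relative median of 0.19. The furthest apart was G3BP2, a stress granule protein, at 4.56 on KD1, 2.995 on KD2 and 3.11 on NC. RBM24 belonged to a list of 47 tissue-restricted RNA-binding proteins with a relative median of 0.01. On each side 3 of them were higher (6.38%, against 9.97% on KD1 and 5.45% on KD2 of all protein-coding genes).

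The EGF receptor family, which the study followed through EGFR, differed little apart from that gene. EGFR, the receptor, had a signal of 2.39 on KD1, 0.99 on KD2 and 1.74 on NC at its brightest probe (A_23_P215790, chromosome 7, 55274841 to 55274900), a 2.64-fold difference. The probe A_33_P3351955, printed above (transcript NM_201282), was at -1.29 on KD1 and -1.99 on KD2, a difference of 0.69. The probe A_33_P3351944 (NM_201283) was at -1.38 and -1.47, a difference of 0.08. EGFR was thus past 1.5-fold at 2 of its 3 probes, with KD1 higher at each. The 2 other probes were dim and annotated to other transcripts than the brightest (NM_005228), so they are weak readings of that transcript. Of the 9 measured genes of the list EGFR alone was past 1.5-fold. The ligands EREG, HBEGF and NRG1 differed by 0.49, 0.48 and 0.40, below 1.5-fold, and AREG, TGFA and BTC by 0.16, -0.08 and 0.01. The receptors ERBB2 and ERBB3 differed by -0.06 and -0.37, and their second probes by 0.36 and 0.19. EREG, HBEGF and NRG1 were past 1.5-fold under the 3 settings that raised all genes on KD1. Of 22 genes of ERK output and feedback, 6 were higher on KD1 (27.3%) and 2 on KD2 (9.09%), with a relative median of 0.14. The shares of all protein-coding genes were 9.97% and 5.45%. PHLDA1 was at 3.85 on KD1 and 2.98 on KD2, while EPHA4 was at 0.35 and 1.07.

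The 15 genes that the study selected as shared targets, partly on these arrays, had a relative median of 0.03, with 2 past 1.5-fold on KD1 and none on KD2. Beside EGFR this was MBNL2, a splicing factor, at 3.27 on KD1, 2.58 on KD2 and 3.37 on NC, whose second probe differed by -0.10. TNS4, an adaptor of focal adhesions, was at 3.40 on KD1 and 3.48 on KD2 (probe A_23_P207850, chromosome 17, 38632098 to 38632157). The TNS4 difference of -0.08 lay between -0.18 and 0.28 over the alternatives, and its sign turned with scaling. ABCC3 (0.58) stayed just under 1.5-fold, and UNC5A, POC1A and ICMT differed by 0.46, 0.24 and 0.14. KIAA0040, ANKRD2 and SERPINA1 differed by -0.31, -0.30 and -0.11. The other 5 genes (SPC24, LOC100507002, HPSE, TSPAN14 and SYNE2) lay between -0.02 and 0.05. SYNE2 differed by -1.06 at its other probe. The paper lists all 15 genes as at least 1.5-fold lower in both knockdowns. At the brightest probes used here, EGFR (2.39 against 1.74), ABCC3 (2.76 against 2.36) and ICMT (-0.25 against -0.63) were above NC on KD1. The other genes of the list were below NC on KD1. On KD2 ICMT (-0.39) was above NC as well. The paper computed its folds with other software, and the probes and scaling behind them were not compared here. It also reports lower EGFR and TNS4 in PRMT1 knockdown cells by quantitative PCR and western blot.

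On the KD2 side, Wnt and TGF-beta genes held some of the larger single differences, but neither list leaned. The Wnt list had 4 of 42 genes higher on KD1 (9.52%) and 5 on KD2 (11.9%), with a relative median of -0.13. The shares of all protein-coding genes were 9.97% and 5.45%. LGR4, the receptor of R-spondins, was at -2.28 on KD1, -0.98 on KD2 and -2.35 on NC, while FZD5, a Wnt receptor, was 0.90 higher on KD1. The TGF-beta and BMP list had 5 of 32 genes higher on KD2 (15.6%, against 5.45% of all protein-coding genes) and none on KD1. Beside INHBB these included SMAD7, an inhibitor of the pathway, at 0.51 on KD1, 1.35 on KD2 and 1.28 on NC. ACVR1B was at least 2.27-fold higher on KD2, as it was not well above background on KD1. The AP-1 list had 2 of 24 genes higher on KD1 (8.33%) and 3 on KD2 (12.5%), beside the same shares, with a relative median of -0.19. FOSB was at 3.75 on KD1, 4.69 on KD2 and 3.63 on NC, and KLF10 at 5.38, 4.60 and 3.77. THBS1, a matrix protein, was at 2.47, 3.66 and 3.02, with -1.39 at its second probe. CCNE2, a cyclin of S-phase entry, was at -0.13, 0.88 and 0.81, with -1.42 at its second probe.

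Intestinal differentiation genes leaned to KD2. Of 47 listed genes only 15 were measured, with a relative median of -0.28. Of these, 4 were higher on KD2 (26.7%, against 5.45% of all protein-coding genes) and none on KD1. CHGA, a marker of enteroendocrine cells, was at -1.77 on KD1 and -0.48 on KD2. ATOH1, which directs secretory cells, and CEACAM7 were at least 2.39-fold and 2.44-fold higher on KD2, since neither was well above background on KD1 or NC. DPP4, a brush border enzyme, was 1.60-fold higher on KD2. With spike-in scaling the unadjusted median of the list turned to 0.07. All these signals were dim, and with only genes well above background on both arrays the list lay at -0.18, below the limit.

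The widest pathway difference lay in the replication-dependent histones. These are the clustered genes expressed in S phase, whose messenger RNAs end in a stem-loop instead of a poly(A) tail. Of 45 measured genes, 44 were lower on KD1 than on KD2, 20 of them past 1.5-fold, and none was past it the other way. The share of 44.4% stands beside 5.45% of all protein-coding genes. The median relative to all genes was -0.56. With spike-in scaling 35 of the 45 were lower on KD1 (unadjusted median -0.21) and with the matrix values 37 (-0.25), and with these and median scaling too few were past 1.5-fold on the KD2 side for the list rule. The differences ran from -1.73 (HIST1H1A) to 0.02, and they were spread over all families. H4 genes had a median of -0.64 (8 of 11 past 1.5-fold), H2B genes -0.59 (6 of 11), H2A genes -0.56 (3 of 9), H3 genes -0.42 (2 of 10) and H1 genes -0.34 (1 of 4).

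HIST1H3A had a signal of 3.81 on KD1, 5.06 on KD2 and 4.95 on NC. HIST1H4D was at 6.67, 7.44 and 7.31, and HIST1H4A at 5.27, 6.01 and 5.81. In these genes KD2 was close to NC, and KD1 was low. HIST1H2AI was at 3.24 on KD1, 3.97 on KD2 and 4.27 on NC, and HIST1H2AB at 3.34, 4.05 and 4.40. HIST1H1A, the dimmest, was at -2.36, -0.63 and -1.29. In the scaling used here, KD1 was the lowest of the 3 arrays in 43 of the 45 genes, whereas KD2 was below NC in 18. Of the 10 genes with another probe, all had it lower on KD1, between -0.13 and -1.42. The genes are near-identical within a family, so that a probe may read several of them and the 45 values are not independent.

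Other histone genes did not share this. Among 11 measured replication-independent histones, whose messenger RNAs carry a poly(A) tail, the median difference was 0.05, with 2 higher on KD1 and 1 on KD2. H2AFZ was at 6.06 on KD1 and 5.39 on KD2, and H2AFY2 was also past 1.5-fold. H3F3A was the exception, at 7.26 on KD1, 8.46 on KD2 and 8.40 on NC, with -0.85 at its other probes. Of 12 factors that transcribe or process histone messenger RNAs, 10 were measured, and none was past 1.5-fold (median 0.03). SLBP, which binds the stem-loop, differed by 0.21, and LSM11, of the U7 particle, by -0.47. The DNA replication list, expressed in the same phase, had a relative median of -0.09. Of its 35 genes 2 were higher on KD1 (5.71%) and 1 on KD2 (2.86%), against 9.97% and 5.45% of all protein-coding genes. These histone and factor lists, and the small RNA families that follow, were picked out after the values had been seen.

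Small nuclear and nucleolar RNAs were lower on KD1 as well. Such RNAs guide chemical modification of ribosomal RNA (snoRNAs) or of spliceosomal RNA (scaRNAs, of Cajal bodies), and most are cut from introns and carry no poly(A) tail. All 20 SCARNA genes were lower on KD1, 15 of them past 1.5-fold, with a median difference of -0.70. Of 110 SNORD genes (box C/D), 101 were lower on KD1, 30 past 1.5-fold, with 1 past it the other way and a median of -0.43. Of 93 SNORA genes (box H/ACA), 82 were lower, 33 past 1.5-fold, with 1 the other way and a median of -0.44. These shares of 75%, 27.3% and 35.5% stand beside 9.65% of all genes. Over the 16 settings the medians stayed negative, between -0.80 and -0.34 for SCARNA, -0.53 and -0.07 for SNORD and -0.55 and -0.09 for SNORA genes. With spike-in scaling 65 of 110 SNORD genes, 57 of 93 SNORA genes and all 20 SCARNA genes were lower on KD1, and with the matrix values 73, 65 and 20.

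Probes of 3 of these RNAs are shown because their values are given next, SCARNA4 (chromosome 1, 155895772 to 155895831), SCARNA18 (chromosome 5, 82360023 to 82360082) and SNORA67 (chromosome 17, 7481350 to 7481409).
SCARNA4 probe: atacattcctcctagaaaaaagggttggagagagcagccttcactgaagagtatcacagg
SCARNA18 probe: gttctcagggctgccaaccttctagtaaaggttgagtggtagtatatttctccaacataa
SNORA67 probe: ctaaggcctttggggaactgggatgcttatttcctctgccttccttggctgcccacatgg

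SCARNA4 had a signal of -1.83 on KD1, -0.52 on KD2 and -0.66 on NC. SCARNA18 was at 2.64, 3.58 and 3.36, and SNORA67 at 4.66, 5.85 and 5.19. SCARNA22, the least different of the family, was at 5.12, 5.52 and 5.47. In the scaling used here, KD1 was below NC in 19 of the 20 SCARNA genes and KD2 in 5, so KD1 was again the one apart. The counts against NC are given in this scaling only. For the SNORD and SNORA genes KD1 was below NC in 95 of 110 and 82 of 93, and KD2 in 49 and 31. Those past 1.5-fold the other way were SNORD85 (-0.20 on KD1, -1.70 on KD2) and SNORA66 (-0.68 and -1.37). Single-copy RNAs of related particles lay the same way. RMRP, the RNA of RNase MRP, was at 4.55 on KD1 and 5.24 on KD2, TERC, the telomerase RNA, at 3.27 and 3.81, and RPPH1, of RNase P, at 4.99 and 5.49. Of 15 genes of RefSeq's snRNA class 14 were lower on KD1, with a median of -0.35, and 2 were past 1.5-fold (RNU2-1 and RNU6ATAC).

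The genes around these RNAs did not follow. The 18 SNHG genes, spliced host transcripts of snoRNAs, had a median difference of 0.05, with 1 past 1.5-fold on each side. The 12 proteins of snoRNA and scaRNA particles had a median of -0.02. FBL, the methylase of box C/D particles and itself a substrate of PRMT1, differed by -0.16, and DKC1, of box H/ACA particles, by 0.34. NAF1, an assembly factor, was 0.64 lower on KD1 and was the only 1 past 1.5-fold. Ribosome biogenesis factors had 5 of 60 higher on KD1 and none on KD2. The share of 8.33% was not above the 9.97% of all protein-coding genes. Cytosolic ribosomal proteins had a relative median of -0.08, with 55 of 73 lower on KD1 but only 2 past 1.5-fold.

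**Figure D4:**
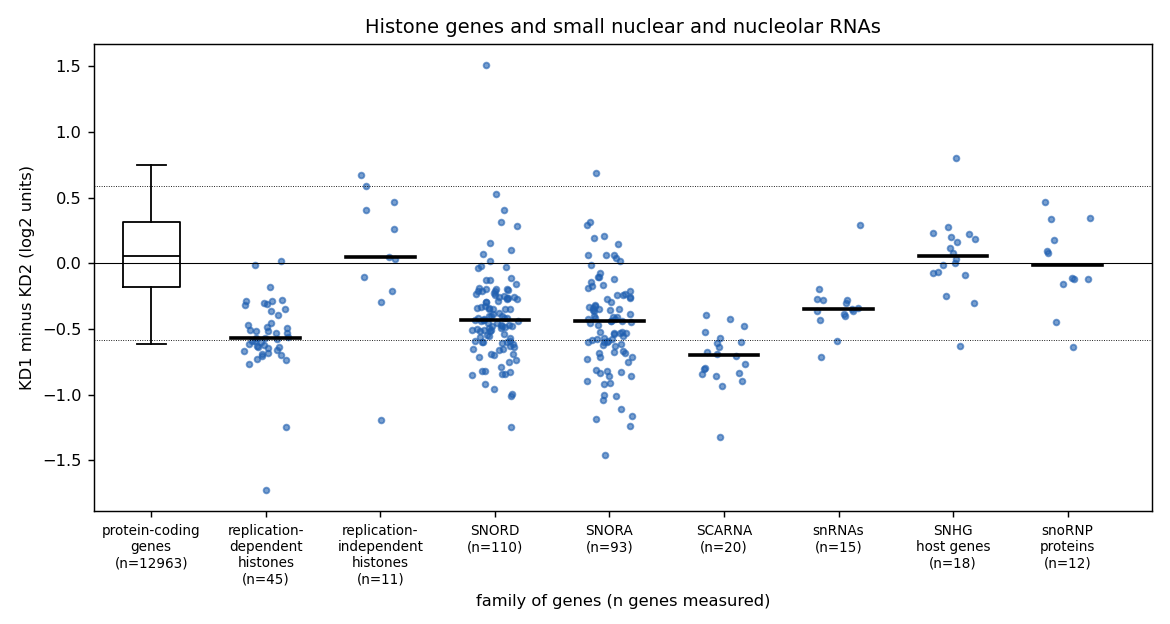
KD1 minus KD2 difference (log2 units) of each gene of 8 families, with the family median as a black bar and 1.5-fold as dotted lines. The first column gives all protein-coding genes as a box (quartiles, with whiskers at the 5th and 95th percentiles). Replication-dependent histones, SNORD, SNORA and SCARNA genes lie mostly below 0, while host genes and particle proteins lie around it.

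Long noncoding RNAs were also lower on KD1, but dimmer. Of 1031 genes that RefSeq classes as lncRNA, 168 were higher on KD2 (16.3%) and 75 on KD1 (7.27%), with a median difference of -0.14. Of 265 LINC genes, 46 were higher on KD2 (17.4%) and 17 on KD1 (6.42%), beside 9.65% and 8.99% of all genes. Only 217 of the 265 were well above background on both arrays, so the rest entered the list through 1 array. The relative median was -0.20, and -0.02 with no filter and no floor. The unadjusted median of -0.21 turned to 0.15 with spike-in scaling. The lean of the LINC genes was lost under 12 of 16 alternatives. LINC01192 was at -2.64 on KD1, 0.20 on KD2 and -1.94 on NC. LINC00898, LINC00383 and LINC00114 were 5.60-fold, 5.30-fold and 4.45-fold higher on KD2, with KD1 set to its floor. None of them was well above background on KD1 or NC. Over the alternatives their differences shrank to as little as -1.16, -0.97 and -0.57. On the other side LINC01429 was at 0.13 on KD1, -1.28 on KD2 and -1.71 on NC, and LINC01526 and LINC01393 were at least 3.27-fold and 2.64-fold higher on KD1. The 4944 names with no RefSeq match had a median of -0.19, with 18.04% higher on KD2.

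The differences moved with the GC content and the brightness of the probes, which bears on every group above. Among genes whose probes had a GC content of up to 35%, 15.2% were higher on KD1 and 6.42% on KD2. Above 55% GC, 1.67% were higher on KD1 and 17.7% on KD2, with a median difference of -0.28. In protein-coding genes alone the median fell from 0.18 to -0.22 between the same classes. In the dimmest 4890 genes, 22.4% were higher on KD2 and 10.65% on KD1, and in the brightest 4890, 2.92% and 5.60%. The median GC content was 53.3% for the histone probes and 45% for the SNORD, SNORA and SCARNA probes.

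Subtracting from each gene the median of its class, out of 60 classes of GC content and signal, left the histones at a median of -0.56, with 18 of 45 past 1.5-fold, and the SCARNA genes at -0.69. SNORD and SNORA genes were at -0.42 and -0.49. It brought lncRNAs to -0.07, names with no RefSeq match to -0.08 and protein-coding genes to 0.03. The histone and small RNA differences were thus as large within such classes, whereas that of the lncRNAs was reduced. All 24 genes furthest apart stayed past 1.5-fold. Whether labelling, RNA integrity or hybridisation of the 2 samples differed was not tested.

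**Figure D5:**
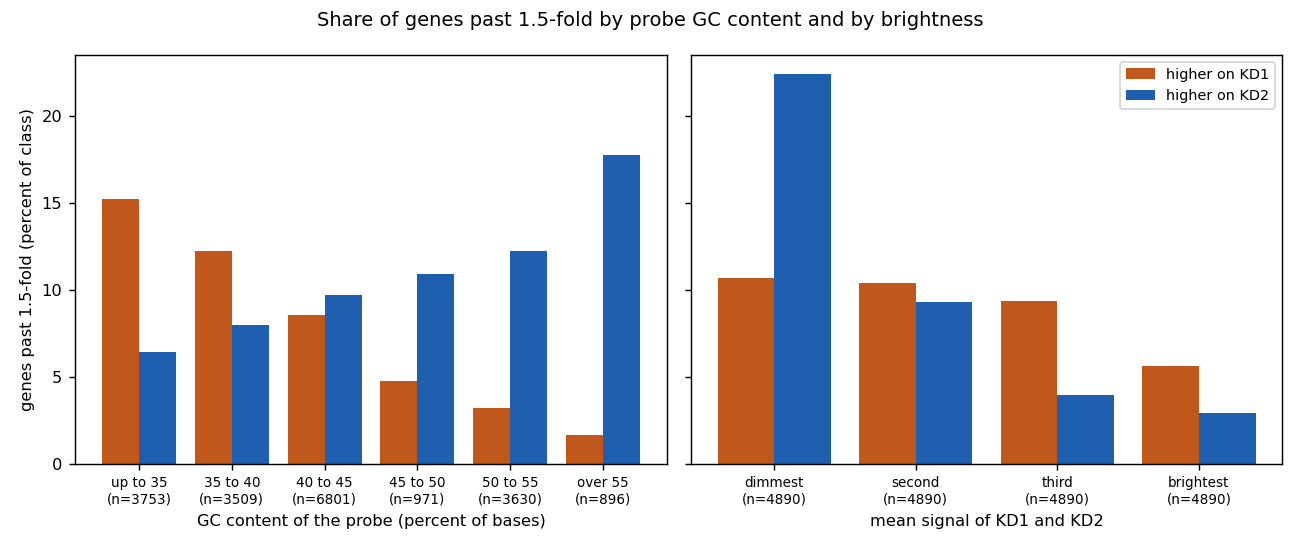
Share of genes past 1.5-fold (vertical axis, percent of the class) by the GC content of the probe (left) and by mean signal over KD1 and KD2 (right), with orange bars for genes higher on KD1 and blue bars for genes higher on KD2. The orange share falls from 15.2% to 1.67% across the GC classes and the blue share rises from 6.42% to 17.7%.

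The probes were also searched for the complement of each siRNA's bases 2 to 8, on the transcript strand and on the opposite strand. The letters GACTACA, the complement for siRNA-2, were in the transcript strand of the 60-base probes of 66 genes (0.337% of genes measured). Of these genes 17 were higher on KD1 (25.8%) and 6 on KD2 (9.09%), with a median difference of 0.22. On the opposite strand (TGTAGTC) there were 50 genes, 4 and 2 of them past 1.5-fold, with a median of 0.06. The letters GACTTCA, for siRNA-1, were in 120 genes (0.613%), 19 of them higher on KD1 (15.8%) and 12 on KD2 (10.0%), with a median of 0.03. On the opposite strand (TGAAGTC) there were 101 genes, 3 and 13 of them past 1.5-fold, with a median of 0.01. All genes measured had a median of -0.01, with 8.99% higher on KD1 and 9.65% on KD2. A probe covers 60 bases of its transcript only, so most sites of a transcript are outside it, and a match is a description of the letters.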

How the data were processed

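RNA of 3 samples of HCT116 cells was measured on 1-colour arrays of 58201 non-control probes of 60 bases, and the KD1 and KD2 arrays were compared. The authors deposited scanner output from Agilent Feature Extraction 10.7.1.1, whose processed intensity is background-corrected within each array and not scaled between arrays, and a series matrix that holds the mean processed intensity per probe. The deposited columns of chromosome positions are hg19. Control spots and spots flagged non-uniform or population outlier were left out, which removed 124 probes. Log2 values were averaged per probe and set relative to the array's 75th percentile of non-control probes. Each gene was read from its brightest probe over KD1 and KD2. A value not well above background was set to the higher of itself and the lowest value well above background on its array. Such folds are bounds in this setting only. Gene names (1507 probes had none) were matched to a RefSeq table of GRCh38.p14, by symbol for 13589 and by synonym for 1027 of the genes measured, and 4944 did not match.

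No test was run, since each group had 1 array. Genes named were PRMT1, TNS4, RBM24, DRICH1 and EGFR, the 12 protein-coding genes furthest apart each way, and list members ranked by difference (up to 6 with and 3 against the lean, at most 3 in other lists, and all of the EGF receptor and study lists). Genes outside this rule were chosen after their values were seen. The members and lists were chosen with earlier results of these data known. Alternatives covered background correction, scaling, GC content and brightness, filters, probes and the fold. The counting was tested on simulated data with noise of SD 0.1 log2 units, where all 200 changed genes were counted. That noise is below the robust SD of 0.38 between the real arrays. The simulation therefore checks the counting steps and not the reliability of a call. Precision is limited by the number of arrays. Computations used R 4.3.3 with limma 3.58.1, and Python 3.11.15 with pandas 2.3.3, statsmodels 0.14.6, numpy 2.4.6 and matplotlib 3.10.9.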

Additional observations from a re-analysis of the deposited data

How the results depend on the processing

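Each result was recomputed under 15 alternatives chosen with earlier results known and 2 added after these values had been seen (the 75th percentile over spots, and the median of detected protein-coding probes). The 1759 genes higher on KD1 and 1888 higher on KD2 became 1101 and 497 with normexp correction, 4174 and 768 with median scaling, 5454 and 605 with spike-in scaling, 4843 and 677 with the series matrix values, 3403 and 5231 with no filter and no floor, and 452 and 508 at 2-fold. They were 1183 and 2640 with the median of detected protein-coding probes and 1202 and 2605 with the percentile over detected probes. The relative median of the histones lay between -0.60 and -0.46. It stayed at -0.56 with median scaling, spike-in scaling and the matrix values, where too few members were past 1.5-fold on the KD2 side for the list rule. Under the same 3 settings the LINC genes (-0.20) missed the rule.

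Other lists fell short more often. Normexp correction gave 0.19 for p53 targets, 0.16 for the methionine cycle list, -0.18 for intestinal differentiation and -0.16 for LINC genes. Quantile normalization gave 0.18 for p53 targets and -0.17 for LINC genes, with the cancer-testis genes at 0.29. Loess gave 0.18 for p53 targets and -0.15 for LINC genes. GC and brightness classes gave 0.135 for p53 targets, 0.19 for the methionine cycle list, -0.19 for intestinal differentiation and -0.14 for LINC genes. Genes well above background on both arrays gave 0.20, -0.18 and -0.19 for p53 targets, intestinal differentiation and LINC genes. With no filter and no floor, intestinal differentiation and LINC genes were at -0.0166 and -0.0183, and the cancer-testis genes turned to -0.0205. LINC genes were at -0.16 with the mean over probes, and at -0.20 with the brightest probe over 3 arrays and with marked spots kept. Cancer-testis genes missed the rule at 0.31 with marked spots kept, with the percentile over detected probes and with both added scalings. Before the median of all genes was subtracted, intestinal differentiation and LINC genes turned to 0.07 and 0.15 with spike-in scaling. The cause was not tested.

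Of 405 values of the genes furthest apart and the 5 given genes, 401 kept their direction and side of 1.5-fold. The exceptions were GRM8 (mean over probes) and 3 values of TNS4, which turned positive. With normexp correction the fold was lower by over 1.5 times for 18 of these genes. Of the 225 named genes 17 changed sign under some alternative, 14 of them with differences below 1.5-fold. The other 3 were CMPK1 (0.11 with the mean over probes), RRN3 (-0.26 with the brightest probe over 3 arrays) and RPS23 (-0.35 with marked spots kept). No paired analysis was possible because each group had 1 array, and no replicate could be left out.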
